A study of Arabidopsis thaliana with 36 samples.

Results

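NPF2.4 (AT3G45700) and NPF2.5 (AT3G45710) are neighbouring Arabidopsis genes for chloride transporters of the root. They were followed here by the probe sets that the platform annotation gives to each of these genes alone. There was 1 such probe set per gene, so the members are 2 of the 13513 probe sets with 1 listed gene and of 22810 probe sets in all. Both were bright enough to be tested.

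Root RNA of the Columbia ecotype of Arabidopsis thaliana was read on 36 Affymetrix arrays, 3 biological repeats for each of 12 groups. Each plant kept a pair of main roots after the primary root had been cut, and these grew in separated compartments of an agar plate. On split plates the roots of the KNO3 side (Sp.NO3) and of the KCl side (Sp.KCl) of a plant were taken apart. On uniform plates both sides held KNO3 (C.NO3) or both held KCl (C.KCl). Roots of each kind were taken 2 or 8 hours or 2 days after transfer. All groups shared the genotype, an age of 12 to 14 days at transfer, growth on 0.1 mM KNO3 and 3 mM sucrose, a pretreatment with 0.5 mM ammonium succinate, and a treatment medium with 0.3 mM sucrose. Each salt was given at 5 mM, so potassium was in every compartment and the media differed in nitrate against chloride. Every compartment held 1 of the 2 salts, and a response to nitrate cannot be told apart from one to chloride.

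Both genes belong to the nitrate and peptide transporter family (NPF), whose members carry nitrate, peptides, hormones, glucosinolates or chloride across membranes. NPF2.4 is known as a plasma membrane transporter of stele cells that helps to load chloride into the xylem, and its transcript is lowered by salt stress and abscisic acid. NPF2.5 is known as a plasma membrane transporter of root cortical cells that releases chloride from the root, and its transcript is raised by salt stress. The comparisons ask how far the transcripts of these 2 chloride transporters follow the anion around the sampled root, the anion around the other root of the plant, and time.

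Some facts of the whole series bear on these values. Sample titles and characteristics disagree on which KCl samples came from uniform and which from split plates. The titles were followed, and the tests of the 2 genes and of the gene lists that rest on KCl arrays were also computed with C.KCl and Sp.KCl exchanged. The median signal of the arrays lay between 193.3 and 221.2. The 3′–5′ index, the mean log2 ratio of 3′ to 5′ control probe sets for actin and GAPDH, is a sign of RNA and labelling quality. Its group means lay between 0.904 and 1.21 at 2 hours, between 0.840 and 1.04 at 8 hours and between 1.22 and 1.38 at 2 days. Of the markers for cell types, 3 of 4 for root hairs, 2 of 3 for cortex and 2 of 6 for shoot had a probe set that the annotation gives to them alone. None of the 6 endodermis and none of the 7 stele and xylem markers had one, so that no marker level is at hand for the tissue NPF2.4 is known from. The root hair markers EXPA7, EXPA18 and GH9C1 had group means between 616.9 and 1639. The arrays read whole roots, in which fewer cells of a type and less RNA per cell cannot be told apart.

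In every group both probe sets lay above the brightness limit of the filter, a signal of 68.9. No detection calls were used, and the range of group means was not set against that of other probe sets. Across the 36 arrays the NPF2.4 signal ran from 330.0 to 702.2, with a median of 476.5. Its highest group mean was 662.8 ± 54.9 in C.NO3 at 2 hours and its lowest 370.3 ± 34.4 in C.KCl at 8 hours (SD, n = 3 each), a ratio of 1.79. The NPF2.5 signal ran from 1572 to 2843, with a median of 2070. Its highest group mean was 2623 ± 200.6 in Sp.KCl at 2 days and its lowest 1736 ± 149.0 in C.KCl at 2 days (SD, n = 3 each), a ratio of 1.51. When the 12 groups of a gene were put in the order of their means, all 11 pairs of neighbours overlapped, for NPF2.4 and for NPF2.5 alike. Groups sorted by their means lie close to their neighbours by construction. In units of the larger SD of the pair, the largest gap between neighbouring means was 1.12 for NPF2.4 and 0.752 for NPF2.5. Signals of different probe sets depend on the probes, and the level of one gene is not set against that of the other. The spread of the arrays about their group means was 0.173 (log2) for NPF2.4 and 0.157 for NPF2.5, against a median of 0.190 over all tested probe sets.

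**Figure D1:**
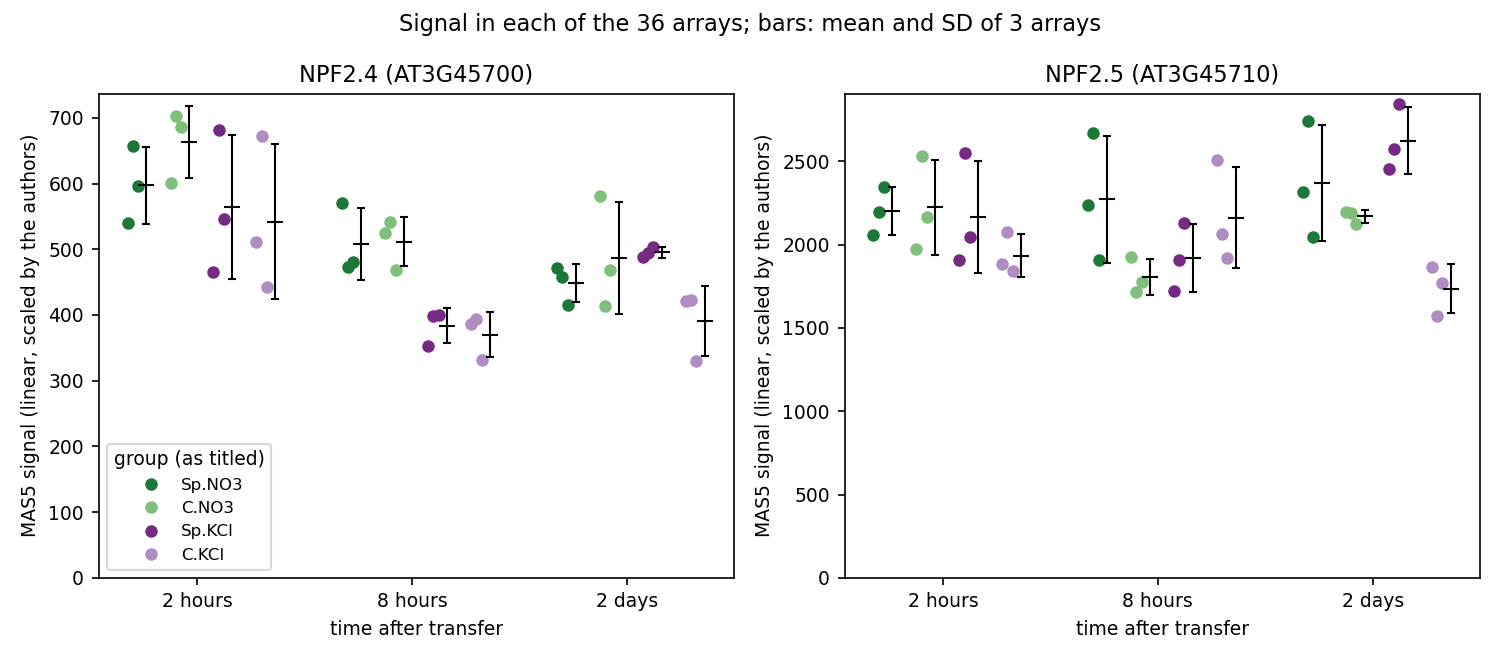
MAS5 signal (linear scale from 0) of NPF2.4 and NPF2.5 in each of the 36 arrays, by time after transfer and group, with bars for the mean and SD of 3 arrays. NPF2.4 is highest at 2 hours and lowest in the 8-hour KCl groups. For NPF2.5 the 2-day Sp.KCl group stands at the top and the 2-day C.KCl group at the bottom of the range.

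NPF2.4 was higher in roots with nitrate on both sides than in roots with chloride on both sides. At 2 hours its signals were 600.2, 702.2 and 686.1 in C.NO3, against 511.2, 672.8 and 442.7 in C.KCl. At 8 hours they were 524.6, 541.0 and 469.0 in C.NO3, against 386.3, 393.8 and 330.8 in C.KCl. At 2 days they were 580.4, 413.5 and 468.0 in C.NO3, against 421.3, 423.4 and 330.0 in C.KCl. All C.NO3 arrays lay above all C.KCl arrays at 8 hours, while the ranges overlapped at 2 hours and at 2 days.

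Over the 3 times NPF2.4 was 0.35 ± 0.08 higher on the log2 scale on uniform nitrate (SE, 9 arrays per side, 95% interval 0.18 to 0.52, 1.27-fold, limma, adjusted p = 0.0101). Of all tested probe sets, 3.4% passed the threshold of 0.05 in this comparison, and 1 of the 2 members did. All 9 of 9 C.NO3 arrays lay above the C.KCl mean of their time, which describes the same arrays and was not counted for other probe sets. The difference was 0.30 ± 0.14 at 2 hours, 0.45 ± 0.14 at 8 hours and 0.30 ± 0.14 at 2 days (adjusted p of 0.262, 0.215 and 0.359), where 2.04%, 0.389% and 2.52% of all tested probe sets passed and neither member did. With the replicate number as a block the adjusted p at 8 hours was 0.0378. The share of all tested probe sets whose C.NO3 and C.KCl arrays did not overlap was 17.5%, 19.5% and 21.8% at these times. The 3′–5′ index was 0.904 ± 0.148 in C.NO3 and 1.21 ± 0.138 in C.KCl at 2 hours (SD, n = 3 each). With the index as a covariate the difference over the times was 0.37 with an adjusted p of 0.00904. With the KCl groups exchanged it was 0.20 with an adjusted p of 0.518, so that the call on uniform plates depends on the reading of the titles. The share of the salt over both plates does not depend on it. In a 3-way analysis of variance this share was 17.2% of the NPF2.4 sum of squares under either reading. Of the 3 root hair markers GH9C1 passed between uniform nitrate and uniform chloride over the times, at -0.32 ± 0.08 (limma, adjusted p = 0.0186). EXPA7 was at -0.01 and EXPA18 at -0.12, and of the 4 cortex and shoot markers 0 passed. With the KCl groups exchanged GH9C1 was at -0.05 (adjusted p = 0.982). Their part in the NPF2.4 difference was not tested.

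NPF2.5 gave no call between uniform nitrate and uniform chloride, and its difference had both signs over the times. At 2 hours its signals were 1974, 2531 and 2165 in C.NO3, against 1883, 2078 and 1839 in C.KCl. At 8 hours they were 1923, 1716 and 1774 in C.NO3, against 2505, 2061 and 1921 in C.KCl. At 2 days they were 2196, 2187 and 2126 in C.NO3, against 1865, 1572 and 1770 in C.KCl. The C.NO3 arrays were lower at 8 hours with 1 narrow overlap, and higher at 2 days with no overlap. Of all tested probe sets 21.8% did not overlap in this comparison at 2 days.

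The NPF2.5 differences were 0.19 ± 0.13 at 2 hours, -0.25 ± 0.13 at 8 hours and 0.32 ± 0.13 at 2 days on the log2 scale (limma, adjusted p of 0.445, 0.546 and 0.220). Their mean was 0.09 ± 0.07 with a 95% interval of -0.06 to 0.24. The change of the nitrate difference was -0.45 ± 0.18 at 8 hours relative to 2 hours and 0.57 ± 0.18 at 2 days relative to 8 hours, with adjusted p-values of 0.355 and 0.354. In these tests 0.107% and 0.0628% of all tested probe sets passed. At 2 days the summed signal of the 2 shoot markers, RCA and LHCB4.2, ran from 473.3 to 564.9 in C.NO3, against 242.3 to 315.3 in C.KCl. In Sp.KCl, the group with the highest NPF2.5 mean, it ran from 272.3 to 371.5. The sum of the 2 cortex markers ran from 881.9 to 1129 in C.NO3, against 730.6 to 1088 in C.KCl. The part of these markers in the NPF2.5 difference was not tested.

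The test of a difference between the responses of the 2 genes did not pass the threshold. The mean nitrate difference of NPF2.4 exceeded that of NPF2.5 by 0.26 on the log2 scale on uniform plates (two-sided exact permutation test over 8000 arrangements of the arrays within times, p = 0.047, adjusted p = 0.094 over the 2 plates). The smallest p this test can give is 0.00025. On split plates the difference of responses was 0.08 (exact p = 0.293, adjusted p = 0.293). On uniform plates the adjusted p was 0.0025 with the KCl groups exchanged and 0.203 with the replicate number as a block.

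**Figure D2:**
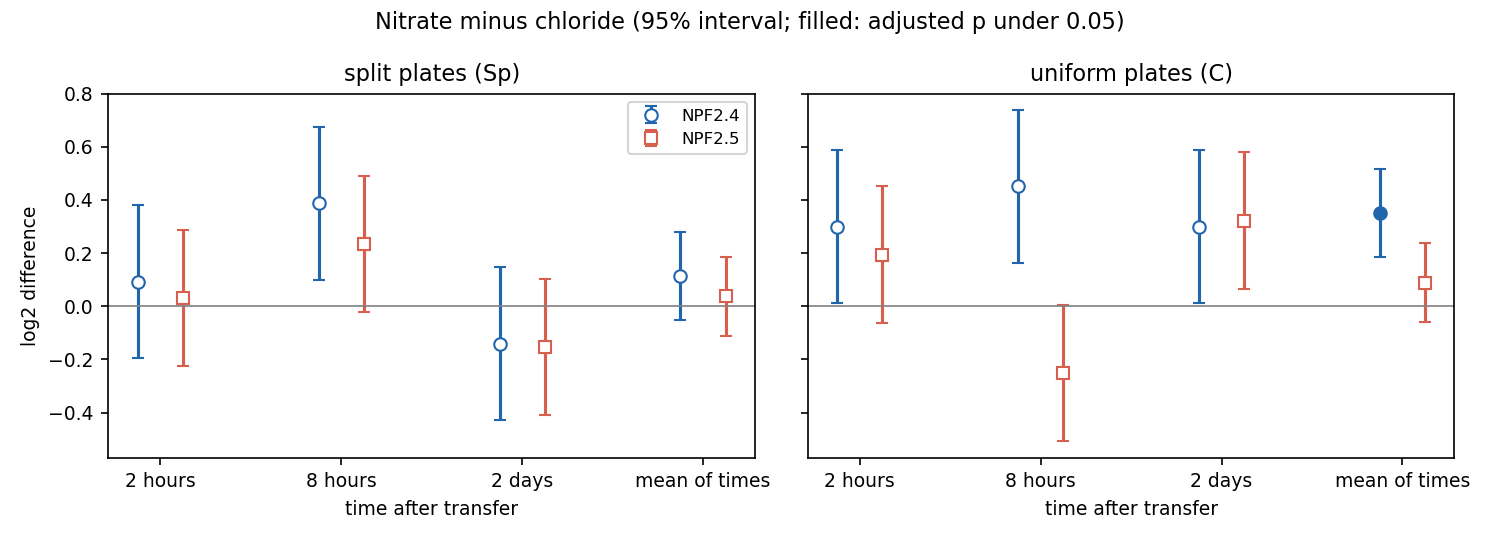
Log2 difference of nitrate minus chloride roots for NPF2.4 and NPF2.5 on split plates and on uniform plates, at each time and as the mean of the times, with the 95% interval of the limma fit. Filled symbols have an adjusted p under 0.05, which holds for NPF2.4 over the times on uniform plates, at 0.35.

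Between the 2 sides of split plates neither gene gave a call. The main fit did not pair the sides, and with the replicate number as a block there was no call either. The NPF2.4 signals at 2 hours were 539.7, 656.5 and 596.4 in Sp.NO3, against 465.0, 681.4 and 546.1 in Sp.KCl. At 8 hours they were 570.6, 472.6 and 480.4 in Sp.NO3, against 352.6, 398.8 and 400.3 in Sp.KCl. At 2 days they were 472.1, 457.9 and 415.7 in Sp.NO3, against 488.0, 494.4 and 503.7 in Sp.KCl. The nitrate side was therefore the higher one at 8 hours and the lower one at 2 days, both times with no overlap. Over all tested probe sets, 4.67%, 10.7% and 15.3% did not overlap at these times.

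The NPF2.4 difference between the sides was 0.09 ± 0.14 at 2 hours, 0.39 ± 0.14 at 8 hours and -0.14 ± 0.14 at 2 days (limma, adjusted p of 1.00, 0.587 and 0.864), where 0.144%, 0.245% and 0.798% of all tested probe sets passed. Over the times it was 0.11 ± 0.08 with a 95% interval of -0.05 to 0.28 and an adjusted p of 0.854, where 1.17% of all tested probe sets passed. On uniform plates the same gene had a difference of 0.35, and the difference between the plates was -0.24 ± 0.11 (adjusted p = 0.482, where 0.113% passed). The loss of the nitrate difference of NPF2.4 on split plates was therefore not shown by the test of that change itself.

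The NPF2.5 signals at 2 hours were 2057, 2198 and 2345 in Sp.NO3, against 1905, 2548 and 2044 in Sp.KCl. At 8 hours they were 2238, 2670 and 1911 in Sp.NO3, against 1725, 1907 and 2131 in Sp.KCl. At 2 days they were 2319, 2741 and 2048 in Sp.NO3, against 2452, 2573 and 2843 in Sp.KCl. The 2 sides overlapped at each time. The NPF2.5 difference over the times was 0.04 ± 0.07 with a 95% interval of -0.11 to 0.18 (limma, adjusted p = 0.976), and at single times it lay between -0.15 at 2 days and 0.23 at 8 hours.

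With the KCl groups as titled, NPF2.5 was higher in chloride roots at 2 days when the other root had nitrate. Its signals there were 2452, 2573 and 2843 in Sp.KCl, whose partner roots had nitrate, against 1865, 1572 and 1770 in C.KCl, whose partner roots had chloride as well. All Sp.KCl arrays lay above all C.KCl arrays. NPF2.5 was 0.59 ± 0.13 higher on the log2 scale in Sp.KCl (SE, n = 3 per side, 95% interval 0.34 to 0.85, 1.51-fold, limma, adjusted p = 0.0116). In this comparison 0.93% of all tested probe sets passed and 16.9% did not overlap, and 1 of the 2 members passed.

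This call rests on few arrays and on the titles. Without the second C.KCl array the adjusted p was 0.0962, without the second Sp.KCl array it was 0.0540, and without each of the others it was below the threshold. With the KCl groups exchanged the same difference has the opposite sign, -0.59, so that its direction depends on the reading of the titles. The 3′–5′ index was 1.34 ± 0.114 in Sp.KCl and 1.38 ± 0.0987 in C.KCl (SD, n = 3 each), and with it as a covariate the difference was 0.59 with an adjusted p of 0.0126. The summed signal of the 2 cortex markers AT1G09750 and AT1G62500 ran from 621.8 to 937.1 in Sp.KCl, against 730.6 to 1088 in C.KCl, and neither marker passed the test.

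At the earlier times NPF2.5 gave no call between the plates. In chloride roots at 2 hours the difference was 0.15 ± 0.13 and at 8 hours -0.17 ± 0.13 (limma, adjusted p of 0.643 and 1.00), where 0.333% and 0% of all tested probe sets passed and 15.4% and 7.12% did not overlap. The 2-day difference exceeded the mean of the earlier ones by 0.60 ± 0.15 (adjusted p = 0.121, where 0.157% passed), so that a change of the plate difference with time was not shown. With the replicate number as a block that adjusted p was 0.0365, but the 2-day chloride arrays of the same number did not deviate together. This contrast was added after the values were seen. Over the times the NPF2.5 difference was 0.19 ± 0.07 (adjusted p = 0.283, where 0.245% passed).

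NPF2.4 was also higher in Sp.KCl than in C.KCl at 2 days, without passing the test. Its signals were 488.0, 494.4 and 503.7 in Sp.KCl, against 421.3, 423.4 and 330.0 in C.KCl, with no overlap, as for 16.9% of all tested probe sets. The difference was 0.34 ± 0.14 with a 95% interval of 0.05 to 0.62 (limma, adjusted p = 0.338). At 2 hours it was 0.06 ± 0.14 and at 8 hours 0.05 ± 0.14, and over the times 0.15 ± 0.08 (adjusted p of 0.900, 1.00 and 0.479).

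In nitrate roots the partner root's medium gave no call for either gene. The NPF2.4 difference of Sp.NO3 from C.NO3 was -0.15 ± 0.14 at 2 hours, -0.01 ± 0.14 at 8 hours and -0.10 ± 0.14 at 2 days (limma, adjusted p of 1.00, 0.992 and 0.999). Of 9 Sp.NO3 arrays, 1 lay above the C.NO3 mean of its time, a count not made for other probe sets. Over the times the NPF2.4 difference was -0.09 ± 0.08 with a 95% interval of -0.25 to 0.08. For NPF2.5 the largest of these differences was 0.32 ± 0.13 at 8 hours, with 2238, 2670 and 1911 in Sp.NO3, against 1923, 1716 and 1774 in C.NO3 (adjusted p = 0.607). Over the times it was 0.14 ± 0.07 with a 95% interval of -0.01 to 0.29 (adjusted p = 0.943). In nitrate roots over the times 0.00628% of all tested probe sets passed, which is 1 probe set, and at single times 4.35%, 15.1% and 11.7% did not overlap.

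**Figure D3:**
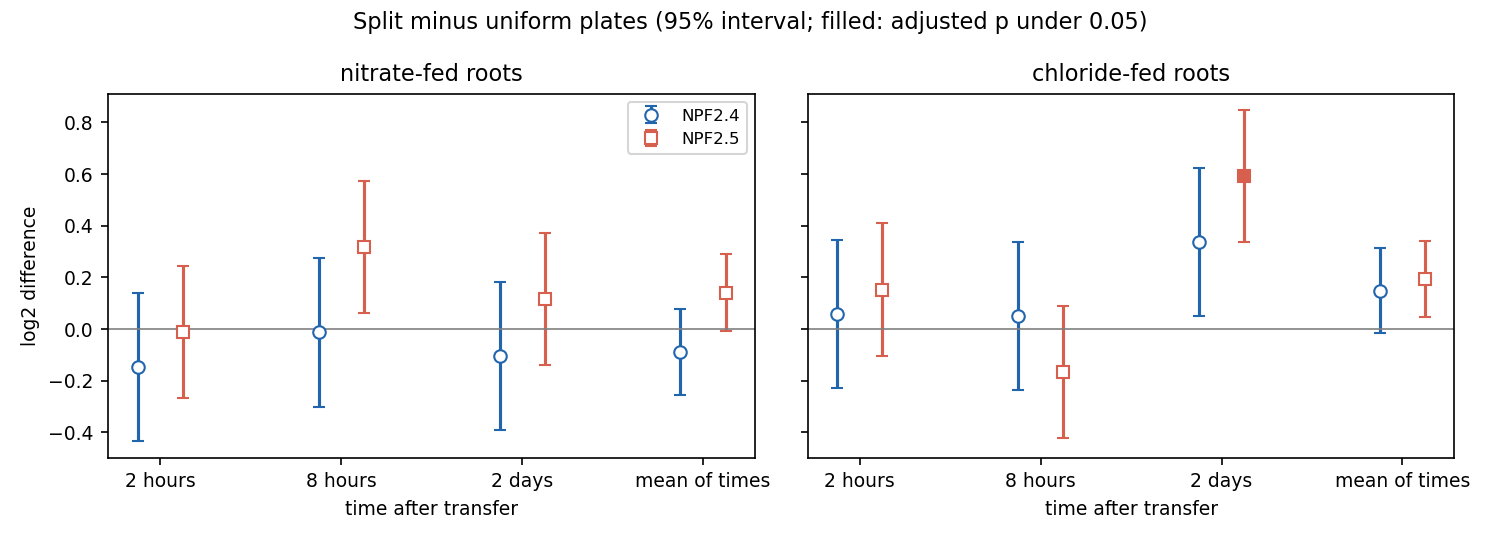
Log2 difference of split minus uniform plates for NPF2.4 and NPF2.5 in nitrate-fed roots and in chloride-fed roots, at each time and as the mean of the times, with the 95% interval of the limma fit. The filled symbol, NPF2.5 in chloride-fed roots at 2 days at 0.59, has an adjusted p under 0.05.

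NPF2.4 was highest at 2 hours and lower at both later times. The 12 arrays of 2 hours ran from 442.7 to 702.2 with a median of 598.3. Those of 8 hours ran from 330.8 to 570.6 with a median of 434.7, and those of 2 days from 330.0 to 580.4 with a median of 462.9. Over the 4 kinds of roots NPF2.4 fell by 0.41 ± 0.07 on the log2 scale at 8 hours relative to 2 hours (limma, adjusted p = 2.04e-05) and was still 0.36 ± 0.07 lower at 2 days (log2 difference -0.36, adjusted p = 4.66e-05). Time moved much of the transcriptome, and 45.1% and 64% of all tested probe sets passed in these comparisons. Between 8 hours and 2 days the difference was 0.05 ± 0.07 (adjusted p = 0.593, where 62.6% passed).

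The fall of NPF2.4 by 8 hours passed the test in both kinds of chloride roots in the fit to all 36 arrays. The difference from 2 hours was -0.52 ± 0.14 in Sp.KCl and -0.51 ± 0.14 in C.KCl (limma, adjusted p of 0.0113 and 0.0111). Fitted to only the arrays compared, neither call held (adjusted p of 0.0794 and 0.0609), and with the RNA quality index in the fit that of C.KCl was lost (adjusted p = 0.0613). In nitrate roots it was -0.23 ± 0.14 in Sp.NO3 and -0.36 ± 0.14 in C.NO3 (adjusted p of 0.284 and 0.0879). Of all tested probe sets 14% passed in Sp.KCl, 15.8% in C.KCl, 16.5% in Sp.NO3 and 12.3% in C.NO3. On uniform plates the nitrate difference changed by 0.15 ± 0.20 between 2 and 8 hours (adjusted p = 0.821), so that a steeper fall in chloride roots was not shown there. On split plates this change was not tested.

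At 2 days NPF2.4 remained below its 2-hour level by -0.40 ± 0.14 in Sp.NO3, -0.44 ± 0.14 in C.NO3 and -0.44 ± 0.14 in C.KCl (limma, adjusted p of 0.0271, 0.0134 and 0.0154). In Sp.KCl the difference was -0.17 ± 0.14 (adjusted p = 0.392). Fitted to only the arrays compared, the call in C.KCl was lost (adjusted p = 0.0575). Of all tested probe sets 35.3% passed in Sp.NO3, 37.9% in C.NO3, 33.9% in C.KCl and 31.2% in Sp.KCl. With the KCl groups exchanged the values of C.KCl and Sp.KCl change places. Each of the calls within 1 kind of roots was lost on leaving out at least 1 of its 6 arrays. The calls over the 4 kinds of roots held without each of the 24 arrays, with adjusted p-values of at most 0.000158, and in a fit that also held the RNA quality index (adjusted p of 0.000110 for 8 hours and 0.000725 for 2 days).

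Markers of other cell types moved over the same times, in the mean of the 4 kinds of roots. The 3 root hair markers fell at 8 hours, EXPA7 by 0.50, GH9C1 by 0.56 and EXPA18 by 0.59 on the log2 scale. At 2 days EXPA7 was 0.29 and EXPA18 0.30 above the 2-hour level, and GH9C1 was at -0.06 (adjusted p = 0.419). Of the 2 cortex markers, AT1G09750 rose by 0.44 at 8 hours and by 1.25 at 2 days, while AT1G62500 fell by 0.96 and by 0.66. Of the 2 shoot markers, neither passed at 8 hours, and at 2 days RCA fell by 0.49 (adjusted p = 0.00318) and LHCB4.2 was at -0.31 (adjusted p = 0.306). Their part in the NPF2.4 values was not tested.

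NPF2.5 gave no call over time in the mean of the 4 kinds of roots. Its 12 arrays ran from 1839 to 2548 with a median of 2067 at 2 hours. They ran from 1716 to 2670 with a median of 1922 at 8 hours, and from 1572 to 2843 with a median of 2191 at 2 days. Over the 4 kinds of roots the differences were -0.07 ± 0.06 for 8 hours against 2 hours and 0.05 ± 0.06 for 2 days against 2 hours (limma, adjusted p of 0.395 and 0.502), and 0.12 ± 0.06 for 2 days against 8 hours (adjusted p = 0.106). The 95% interval of the 2-day difference was -0.08 to 0.18, and that of NPF2.4 was -0.51 to -0.22, but the difference between the genes was not tested.

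In the fit to all 36 arrays, a change of NPF2.5 with time passed the test in 1 kind of roots. In Sp.KCl its signals were 2452, 2573 and 2843 at 2 days, against 1725, 1907 and 2131 at 8 hours. The difference was 0.45 ± 0.13 (limma, adjusted p = 0.00682, where 31.2% of all tested probe sets passed), and it passed without each of the 6 arrays. In C.KCl the difference over the same interval was -0.31 ± 0.13, in C.NO3 0.27 ± 0.13 and in Sp.NO3 0.06 ± 0.13 (adjusted p of 0.0584, 0.0960 and 0.745, where 32.2%, 37.5% and 30.5% passed). Fitted to only the arrays compared, the rise in C.NO3 passed as well (adjusted p = 0.0208). With the KCl groups exchanged the rise belongs to C.KCl. The plate difference in chloride roots changed by 0.76 ± 0.18 over that interval (adjusted p = 0.276, where 0.0126% passed).

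The factors of the design took different shares of the variation of the 2 genes. In a 3-way analysis of variance, time held 42.6% of the sum of squares of NPF2.4 and the salt 17.2%, while the plate held 0.301% and the arrays within groups 25.7%. For NPF2.5 the plate held 16.7%, its interaction with time 10.4% and its interaction with salt and time 23.9%. The salt held 2.35% of the sum of squares of NPF2.5, time 5.47%, and the arrays within groups 39.2%. With C.KCl and Sp.KCl exchanged the plate held 0.395% for NPF2.5, its interaction with time 23.9% and its interaction with salt and time 10.4%, and for NPF2.4 the plate held 4.51%. The shares of salt, time and the arrays within groups do not depend on that exchange. The shares are given as a description of the 36 arrays.

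Among probe sets with 1 listed gene, those whose group means ran most like the 2 transporters mostly carry no symbol in the annotation. Tested probe sets without 1 listed gene were left out, so closer ones may lie among them. Over the 12 group means and 8791 other tested probe sets with 1 gene, NPF2.4 ran closest to COR47 (AT1G20440), a dehydrin induced by cold and water deficit, with r = 0.942. AT1G20490 followed with r = 0.929, PyrD (AT4G20960), an enzyme of riboflavin synthesis, with 0.911, AT1G70790 with 0.910 and AT4G16670 with 0.907. The most opposite were AT1G11540 at -0.953 and AT5G58480 at -0.931. For NPF2.5 the closest were AT5G63440 with r = 0.869, AT5G46230 with 0.866, AT1G26690 with 0.799, AT1G75280 with 0.785 and AT1G05430 with 0.784, and the most opposite were AT5G01160 at -0.865 and AT5G35100 at -0.863. All these genes are the extremes of 8791 correlations over 12 group means. How far such extremes lie from 0 for unrelated probe sets was not tested. The group means of NPF2.4 and NPF2.5 had r = 0.298 with each other (n = 12), and their deviations from the group means had r = 0.451 (n = 36). The group means share the arrays and the strong change with time, and the deviations share each array's hybridisation.

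The related NPF genes that were bright enough to be tested gave no call for salt or plate over the times, nor for the plate in chloride roots at 2 days, with the KCl groups as titled or exchanged. In the RefSeq order of genes (assembly TAIR10.1), AT3G45680 and AT3G45690 lie before NPF2.4, a noncoding RNA gene lies between NPF2.4 and NPF2.5, and AT3G45720 lies after NPF2.5. Of the 12 other genes in a list of NPF subfamily 2 and of this gene cluster, 7 had a probe set of their own and 4 were bright enough to be tested: AT3G45680, AT3G45720 and the glucosinolate transporters GTR1 and GTR2. The probe set of AT3G45690 was dim, with group means between 34.8 and 66.1. Whether probes of such related neighbours read only their own transcript was not tested.

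On uniform nitrate against uniform chloride, over the times, AT3G45680 differed by 0.03 ± 0.13, AT3G45720 by 0.19 ± 0.12, GTR1 by 0.05 ± 0.13 and GTR2 by 0.16 ± 0.09, and 0 of the 4 passed (limma, adjusted p of 0.937, 0.452, 0.881 and 0.363). The median of the 4 was 0.11, against 0.00 over all tested probe sets. In chloride roots at 2 days, AT3G45680 was at 0.71 ± 0.22, GTR1 at 0.42 ± 0.22, GTR2 at 0.25 ± 0.16 and AT3G45720 at 0.07 ± 0.22 for split minus uniform, and 0 of the 4 passed (adjusted p of 0.159, 0.492, 0.575 and 0.952). The median of the 4 there was 0.34, against -0.02 over all tested probe sets, and with the KCl groups exchanged these differences have the opposite sign.

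AT3G45680 fell at both later times. At 8 hours it was 0.83 lower than at 2 hours on the log2 scale (log2 difference -0.83 ± 0.11) and at 2 days the difference was -2.26 ± 0.11, with limma adjusted p-values of 3.26e-07 and 3.33e-17. Its group means ran from 2418 down to 359.9 over the 12 groups. AT3G45720 fell by 0.37 at 8 hours (adjusted p = 0.00546) and had a difference of -0.20 at 2 days (adjusted p = 0.107). GTR2 was at 0.11 at 8 hours (adjusted p = 0.255) and fell by 0.40 at 2 days (adjusted p = 5.00e-05), while GTR1 passed at neither time. In the 2 comparisons with 2 hours, 2 of the 4 thus fell at 8 hours and 2 at 2 days, and none rose, against the 45.1% and 64% of all tested probe sets that passed in either direction.

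**Figure D4:**
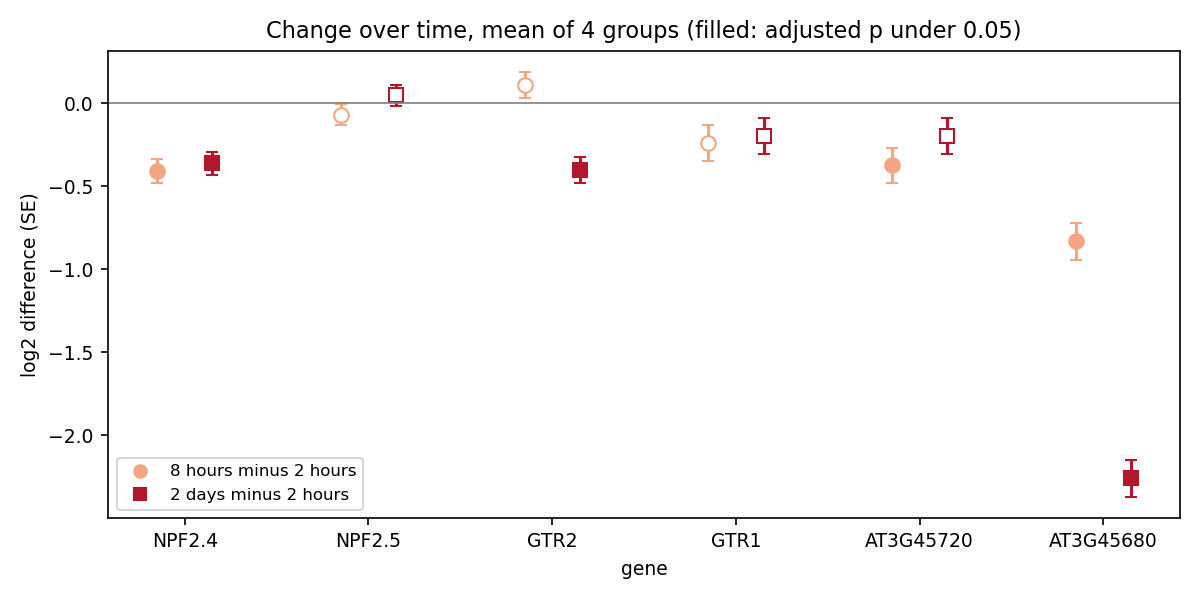
Log2 difference from 2 hours at 8 hours and at 2 days, as the mean over the 4 kinds of roots with the SE of the limma fit, for NPF2.4, NPF2.5 and the 4 tested genes of the NPF subfamily 2 list. Filled symbols have an adjusted p under 0.05. NPF2.4 is near -0.4 at both times, NPF2.5 near 0, and AT3G45680 reaches -2.26.

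Few other genes of chloride handling could be found through the annotation, which lists no gene for many probe sets. Of 18 chloride and anion channels and carriers in a list, 1 was listed there with a probe set of its own, AT1G47530. It differed by 0.03 ± 0.09 between uniform nitrate and uniform chloride (limma, adjusted p = 0.908) and by 0.08 ± 0.15 between split and uniform plates in chloride roots at 2 days (adjusted p = 0.907). Its level fell by 0.43 at 2 days relative to 2 hours (adjusted p = 8.59e-06). Of 16 potassium channels and carriers and of 9 genes of the sodium and salt response, 0 were listed there with a probe set of their own. Whether unlisted probe sets read these genes was not tested.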

How the data were processed

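The authors' deposited intensity values, 1 column per array, are linear MAS5 signals. The tool name comes from the submitters' processing notes, and nothing more on upstream steps was at hand. The 2% trimmed mean of each array came to 500.0, read from the values. Signals were taken to log2 after adding 16. The 64 control probe sets and those under the 30th percentile of the mean (a signal of 68.9) were dropped, so that 15922 of 22810 entered the test. The 12 group means were fitted to all 36 arrays with limma 3.58.1 in R 4.3.3 (lmFit, contrasts.fit, eBayes with an intensity trend). Two-sided p-values were adjusted by Benjamini-Hochberg across all 15922 for each contrast, at a threshold of 0.05. A fold change is on the scale of log2(signal + 16), which understates changes of dim probe sets. Precision is limited by having 3 arrays in a group. The fit and the permutation test were tested on simulated data.

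The 2 genes and all gene lists were chosen with earlier results of these data known. After values were seen, 5 contrasts between times were added. Among them were changes of the nitrate difference, on uniform plates from 2 to 8 hours and on both plates from 8 hours to 2 days. The rest were the plate difference in chloride roots at 2 days, minus that at 8 hours and minus the mean of the earlier ones. Genes were named as the 2 members, the 5 most like and the 2 most opposite probe sets per member, and the tested members of each list. The annotation gives 1 gene for 13513 probe sets and several for 503. The rest of the 22810 have no gene listed there, so a gene without a listed probe set may still be on the array. The main fit had no block for the repeat numbers of the titles, which entered only as an alternative. Repeat numbers were judged to pair arrays where every same-numbered pair correlated above 0.1 in its deviations from the group means. This held for uniform nitrate against chloride at each time, for all comparisons at 2 hours, and at 8 hours for all but the nitrate roots. At 2 days it did not hold for the other 3 comparisons, with correlations of -0.05 to 0.03 in chloride roots. Alternatives were other pseudocounts, filters, quantile normalization, the replicate block, the exchanged KCl groups, other variance models, the 3′–5′ index and single arrays left out.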

Additional observations from a re-analysis of the deposited data

Results flagged for a closer look

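In 7 cases all 3 arrays of a group lay on one side of the mean of the group it was compared with, and in a second setting all 3 lay on the other side. In none of them did the limma test of the difference itself pass. How often this pattern occurs among other probe sets was not counted, and some of the cases share groups. For NPF2.4 the nitrate side of split plates lay above the chloride side at 8 hours and below it at 2 days, a change of -0.53 (adjusted p = 0.998). Also for NPF2.4, the nitrate difference at 2 days was negative on split and positive on uniform plates, which differ by -0.44 (adjusted p = 0.615). The same 4 groups, read as split minus uniform on the chloride side against the nitrate side, differ by 0.44.

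For NPF2.5 the nitrate difference on uniform plates was positive at 2 hours and negative at 8 hours, a change of -0.45 (adjusted p = 0.355), and positive again at 2 days, a change of 0.57 (adjusted p = 0.354). The difference of split from uniform plates in chloride roots was negative at 8 hours and positive at 2 days, a change of 0.76 (adjusted p = 0.276). At 8 hours it was also opposite to that in nitrate roots, by -0.48 (adjusted p = 0.766).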

How the results depend on the processing

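Values here are log2 differences. The pseudocounts of 1 and 64, both other filters, eBayes without a trend and the design's analysis of variance changed no direction and no call of the 2 genes. Quantile normalization turned 1 near-zero value, NPF2.5 split minus uniform in nitrate roots at 2 hours, to 0.0017. The 3′–5′ index turned NPF2.4 at 2 days minus 8 hours to -0.042 and, like the fit to only the arrays compared, ended the call of NPF2.4 in C.KCl at 8 hours minus 2 hours (adjusted p of 0.0613 and 0.0609). That fit also ended the NPF2.4 calls in Sp.KCl at 8 hours and in C.KCl at 2 days (adjusted p of 0.0794 and 0.0575), and it made 1 call, NPF2.5 at 2 days minus 8 hours in C.NO3 (0.27, adjusted p = 0.0208).

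The replicate block kept each difference and made 3 further calls: NPF2.4 on uniform plates at 8 hours (0.45), and NPF2.5 in chloride roots for the plate difference at 2 days minus the mean of the earlier times (0.60) and minus 8 hours (0.76). The last pair rests on 2-day arrays that did not pair by number, and its contrasts were added after the values were seen. The block changed no other call of the 2 genes. Over all tested probe sets it called 1371 in place of 541 for uniform nitrate against chloride and 404 in place of 148 for chloride roots at 2 days, where the exchanged groups gave 135 for the first and the fit to only the arrays compared gave 91 for the second.

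Exchanging C.KCl and Sp.KCl turned the sign of every difference of split minus uniform in chloride roots, by construction. NPF2.4 then had -0.060 at 2 hours, -0.052 at 8 hours, -0.34 at 2 days and -0.15 over the times. NPF2.5 had -0.15, 0.17, -0.59 and -0.19, and its 2-day value differed from the earlier mean by -0.60 and from 8 hours by -0.76. The nitrate difference of NPF2.4 on uniform plates became 0.20 over the times and -0.036 at 2 days, with 0.20 on split plates at 2 days and differences between the plates of 0.061 over the times and 0.23 at 2 days. That of NPF2.5 became -0.10 over the times and -0.27 at 2 days on uniform plates, with 0.44 on split plates at 2 days, and its change between 8 hours and 2 days became -0.18. NPF2.5 at 2 days minus 8 hours became 0.45 in C.KCl and -0.31 in Sp.KCl. The difference between the responses of the 2 genes became 0.31 and passed.

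Leaving out 1 array at a time gave 0.52 to 0.64 for NPF2.5 in chloride roots at 2 days, with the call lost for 2 of 6 arrays. It gave 0.22 to 0.30 for the difference of the responses, which passed without the second C.NO3 or the second C.KCl array of 2 days (adjusted p of 0.046 and 0.039). NPF2.5 at 2 days minus 8 hours ran from 0.087 to 0.15 over the 4 kinds of roots and passed without 2 of 24 arrays, and in Sp.NO3 it ran from -0.055 to 0.18. Signs turned for values near 0, none of them called. For NPF2.4 these were split nitrate minus chloride at 2 hours (-0.034 to 0.23), the change of the uniform nitrate difference between 2 and 8 hours (-0.011 to 0.28), split minus uniform in chloride roots at 2 hours (-0.082 to 0.22) and 8 hours (-0.024 to 0.11), and in nitrate roots at 8 hours (-0.097 to 0.035) and 2 days (-0.21 to 0.025). For NPF2.5 these were split nitrate minus chloride at 2 hours (-0.055 to 0.15) and over the times (-0.0036 to 0.078), and split minus uniform in nitrate roots at 2 hours (-0.091 to 0.087). Where a call changed, the cause was not tested.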
